A study of Mus musculus with 24 samples.

Results

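The long domains described here are 344 stretches of mouse chromosomes 1 to 19, each at least 100 kb long, that carried trimethylation of lysine 36 of histone H3 (H3K36me3) in N1E115 cells. They were found by merging the overlapping or touching H3K36me3 islands of 4 libraries and keeping merged regions of at least 100 kb with an island in every library. Of 18533 merged regions on these chromosomes, 10507 had an island in all 4 libraries, and the 344 long domains are 3.27% of those; 4 further regions of 100 kb or more lacked an island in some library and were left out. The domains were thus chosen by the length and presence of H3K36me3 islands, so their length, their H3K36me3 cover and their presence in every library are description, and no test is attached to them.

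N1E115 is a mouse neuroblastoma line, here labelled positive for neuronal nitric oxide synthase (NOS1), and all cells in the series were NOS1-positive. The cells were kept for 3 days at 20% or 4% oxygen, the levels the labels call normoxia and hypoxia. Chromatin immunoprecipitation and sequencing was done for 5 histone marks with 2 libraries per mark and oxygen level; 4 input samples complete the 24 samples and were not analysed here. Replicate 1 of each mark is called set 1 and replicate 2 set 2, after the number of the input each library was called against. The labels do not state whether both libraries of a group were grown separately, and p-values here measure only the spread between these libraries, which may be technical. Per the file headers, both set 2 libraries of H3K36me3 ran on 1 lane of 1 flow cell, while the set 1 libraries at 20% and 4% oxygen ran on different flow cells, so oxygen and flow cell cannot be told apart in set 1.

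H3K36me3 is written on nucleosomes behind elongating RNA polymerase II, chiefly by SETD2, which travels with the polymerase. It therefore fills the bodies of transcribed genes and is thin at their promoters, where H3K4me3 sits instead. H3K27ac marks active promoters and enhancers, H3K4me1 mainly enhancers, and H3K27me3 chromatin held silent by Polycomb complexes. 

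The domains are ordered along genes, so the bases just before the start of their genes are shown first. Each line holds the 250 bases before a RefSeq transcript start of the gene (GRCm38.p6), read 5′ to 3′ on the gene's own strand, with every CpG in capitals. Tmtc2 has the longest domain, Marchf11 a very dense one, Plcxd3 and Drosha the largest differences by oxygen in each direction, and Nos1 is the gene the cells are labelled for. They lie at chr10:105574480-105574729 (minus strand), chr15:26308798-26309047, chr15:4375241-4375490, chr15:12824565-12824814 and chr5:117866589-117866838 (plus strand). The RefSeq gene record of Drosha used for the domains begins at 12824804, inside the stretch shown, so the last bases of that stretch belong to the record.
Tmtc2: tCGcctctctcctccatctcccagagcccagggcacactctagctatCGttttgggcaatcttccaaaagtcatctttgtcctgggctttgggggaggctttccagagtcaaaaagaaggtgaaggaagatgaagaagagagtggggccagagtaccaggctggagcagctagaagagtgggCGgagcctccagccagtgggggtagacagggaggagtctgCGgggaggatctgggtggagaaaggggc
Marchf11: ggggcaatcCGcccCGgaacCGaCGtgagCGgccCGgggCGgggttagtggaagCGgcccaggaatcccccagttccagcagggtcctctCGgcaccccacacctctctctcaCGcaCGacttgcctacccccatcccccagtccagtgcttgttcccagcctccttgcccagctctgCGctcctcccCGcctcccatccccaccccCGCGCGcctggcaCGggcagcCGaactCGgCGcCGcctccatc
Plcxd3: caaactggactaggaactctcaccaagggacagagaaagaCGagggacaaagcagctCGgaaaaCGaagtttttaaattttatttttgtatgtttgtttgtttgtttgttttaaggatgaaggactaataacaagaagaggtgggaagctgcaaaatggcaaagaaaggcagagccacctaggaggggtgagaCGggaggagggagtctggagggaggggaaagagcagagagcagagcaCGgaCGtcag
Drosha: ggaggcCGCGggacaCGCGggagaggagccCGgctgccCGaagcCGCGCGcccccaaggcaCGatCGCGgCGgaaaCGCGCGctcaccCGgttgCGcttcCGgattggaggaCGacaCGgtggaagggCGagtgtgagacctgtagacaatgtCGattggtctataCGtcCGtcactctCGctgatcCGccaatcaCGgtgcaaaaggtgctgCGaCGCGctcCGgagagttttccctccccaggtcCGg
Nos1: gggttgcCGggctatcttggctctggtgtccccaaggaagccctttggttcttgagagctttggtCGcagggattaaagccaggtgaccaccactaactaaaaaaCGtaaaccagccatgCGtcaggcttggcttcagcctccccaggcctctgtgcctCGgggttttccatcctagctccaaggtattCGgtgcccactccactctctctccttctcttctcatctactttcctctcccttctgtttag
The Drosha stretch holds 33 CpG and the Marchf11 stretch 21, against 6 for Plcxd3, 6 for Nos1 and 4 for Tmtc2. An H3K4me3 peak overlapped the listed promoter of Tmtc2, Marchf11, Plcxd3 and Drosha in all 4 H3K4me3 libraries, and that of Nos1 in 0 of 4.

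RefSeq promoters matched 268 of the 330 leading genes, a leading gene being the protein-coding gene that overlaps a domain most. Taking the promoter with most CpG for each gene, the 250 bases before the start held a median of 22 CpG (quartiles 15 and 32), against 16 in 1548 protein-coding genes of at least 100 kb that no domain touches and 11 in all 16457 protein-coding genes with a promoter. The ratio of observed to expected CpG reached 0.6 in 82.5% of leading genes, in 62.4% of the other genes of at least 100 kb and in 49.1% of all genes. The letters TATAAA, searched on both strands, occurred in 5.6%, 5.75% and 12.2% of them. These shares describe sequence only.

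The 344 domains summed to 45.7 Mb. Their median length was 123 kb, with quartiles of 110 and 146 kb, against 21.6 kb in the other regions found in every library. In all, 77 reached 150 kb and 16 reached 200 kb. The longest, 287.8 kb, lay in Tmtc2, which encodes an endoplasmic reticulum protein with tetratricopeptide repeats. The next were 260.2 kb in Syne2, the giant nuclear envelope protein nesprin-2, and 255.2 kb across Mllt10, a partner of the H3K79 methyltransferase DOT1L, and its neighbour Dnajc1. Dock4, an activator of Rac GTPase, and Wdfy3, a scaffold of selective autophagy, had 239.4 kb each. Syt1, the calcium sensor of synaptic vesicles, had a domain of 238.6 kb. The diacylglycerol kinase gene Dgki had neighbours of 235.8 and 230.8 kb, and Tmtc1 and Vps13d, a lipid transfer protein, had 230.6 and 227.0 kb. Just inside the threshold were Ankfy1 with Cyb5d2 and Agap1, at 100 kb each, and just outside were Ccdc6 at 99.8 kb and Cep350 at 99.6 kb.

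Some of the longest transcribed stretches were cut by short breaks. The Dgki domains were 0.8 kb apart and together covered 462.2 kb of a gene record of 463.6 kb. The Syt1 domains were also 0.8 kb apart. Rims2, an active-zone scaffold of the synapse, held 3 domains, 3.8 and 2.4 kb apart, that covered 479.0 of its 486.1 kb. In all, 10 genes held more than 1 domain, among them Myt1l, Ncam1, Plcb4, Snd1, Agap1, Nyap2 and Vps13b.

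Inside the domains the islands were nearly continuous. H3K36me3 islands covered 96.0% of the summed length in the set 1 library and 95.4% in the set 2 library at 20% oxygen, and 93.8% and 96.2% at 4%. The 4% library was 2.29 points lower in set 1 and 0.77 points higher in set 2. A domain was 1 unbroken island in 97 to 163 cases per library and in all 4 libraries in 48. An island of at least 100 kb was present in every library for 89 domains and in none for 63, which reach that length only through merging. In 236 domains cover was at least 90% in every library. Cover was under 50% in some library in 4 domains: Sox6 (25.1%) and Ssbp2 (36.7%) and the middle Rims2 domain (42.7%) in the 4% library of set 1, and Rnf217 (47.5%) in the 20% library of set 1.

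The domains held 15.6% and 14.5% of all island reads at 20% oxygen and 16.2% and 15.7% at 4%. Both 4% libraries were above both 20% libraries, by 0.93 percentage points on average, 0.63 in set 1 and 1.23 in set 2 (exact permutation test of 2 against 2 libraries, two-sided, p = 0.333, the smallest possible). Island reads numbered 25048785 and 13350093 in the 20% libraries and 15581212 and 15349603 in the 4% libraries, so the set 1 library at 20% was the deepest. Unscaled, the median domain had 81.7, 40.6, 52.7 and 50.7 reads per kb in the order 20% set 1, 20% set 2, 4% set 1 and 4% set 2, which follows depth. Density is therefore given below as reads per covered kb per 1000000 island reads, with library sizes scaled by the TMM method, and libraries are listed in that same order.

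On that scale the median domain stood at 3.66, 3.43, 3.61 and 3.63, above the 2.70 to 2.75 of the other regions. Among the densest, Marchf11, a membrane-bound ubiquitin ligase, had 7.48, 6.5, 8.98 and 7.83. The microtubule-binding protein gene Map1b had 7.46, 6.25, 8.49 and 6.69. The deubiquitinase gene Usp34 had 7.43, 6.09, 7.5 and 6.69, and Yeats2, a subunit of the ATAC acetyltransferase complex, 6.60, 7.20, 5.97 and 6.85. The ranges of these 4 domains overlapped, so their order is not resolved. At the other end, Nf1, the Ras GTPase-activating protein neurofibromin, had 2.34, 1.75, 2.33 and 1.87, and Zfp644 had 2.23, 2.10, 2.18 and 2.02. Farp1, St7 and Evl had means of 2.21, 2.21 and 2.22. No value of these 5 thinnest domains reached any value of the 4 dense ones, both groups being picked by mean density in these same libraries.

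Domains were unevenly spread over chromosomes. Chromosome 15 carried 28 domains, as many as chromosome 5, and 20 of its 101 genes of at least 100 kb (19.8%) were in a domain, the highest share of any chromosome. The median density of its domains was 4.51, against 2.72 to 3.91 on the other chromosomes, and Marchf11 lies on it. Chromosome 18 had the lowest share, 3 of 127 genes (2.36%). Copy number was not examined, since inputs were not analysed here, and its part in these levels was not tested.

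Protein-coding gene records covered 95.8% of the domains' length. The domains overlapped 483 protein-coding genes, 2.34% of the 20665 on these chromosomes. Exactly 1 gene was present in 215 domains, 2 in 104, 3 in 18 and more in 4. The leading gene made up a median of 96.0% of its domain. A further 3 domains overlapped no protein-coding gene and lay over the long noncoding RNA genes Lncpint, Pvt1 and Gm26871. Leading genes had a median length of 135 kb, against 17.5 kb over all genes, as the length rule requires, and 64 of the 330 were under 100 kb.

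Length alone did not give a gene a domain. Of 2313 genes of at least 100 kb, 275 (11.9%) overlapped a long domain and 1088 were under 5% covered by H3K36me3 in every library. A further 291 were at least 50% covered in every library without having a long domain. The remaining genes lay between.

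By function, genes of the ubiquitin system, large chromatin regulators, cytoskeletal giants and motors, and VPS13 and BEACH-domain proteins were frequent in the domains. Most long neuronal adhesion genes carried little H3K36me3. The gene lists were drawn up with earlier results of these data known, so the counts are description. They can be read against the 2.34% of all protein-coding genes and the 11.9% of genes of at least 100 kb that overlapped a domain.

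Among ubiquitin ligases and deubiquitinases, 14 of 30 genes were in a domain, and 10 of the 17 members of at least 100 kb. They include Usp34, Birc6, Hectd4, Herc1, Ubr3, Mycbp2 and Trip12. Among large chromatin regulators the count was 15 of 38, and 11 of the 16 members of at least 100 kb. Chd6, Kmt2c, Ncor1, Crebbp, Arid2, Chd2 and Smarcc1 were included, with remodellers, acetyltransferases and corepressors side by side. Cytoskeletal giants and motors contributed 12 of 27, and 11 of the 20 members of at least 100 kb. Syne2, Myo9a, Dst, Map4, Kif1b, Utrn, Myo5a and Clasp2 were included. Of VPS13, BEACH-domain and autophagy proteins, 8 of 19 were present, all among the 11 members of at least 100 kb. These were Wdfy3, Vps13d, Nbeal1, Vps13b, Vps13c, Ambra1, Lyst and Lrba, with only 9.42% of the Lrba record inside. The list of PI3K-like kinases and DNA repair had 4 of 19 in a domain, including the kinases Atm, Mtor and Smg1. Of its 6 members of at least 100 kb, 2 were in a domain.

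The list of writers, erasers and readers of H3K36 methylation had 2 of 27 members in a domain, Nsd3 and Ash1l, both H3K36 methyltransferases. Of its members 6 are at least 100 kb long, and 22 were at least 25% covered in every library. Transcription elongation and splicing gave Cdk13 and Aff1, 2 of 27, and translation gave Eif4g3, 1 of 22. Of hypoxia response genes 0 of 34 were in a domain, of glycolysis genes 0 of 28, of noradrenergic identity genes 0 of 30 and of housekeeping reference genes 0 of 14. Only 2 hypoxia genes, 2 glycolysis genes, 5 noradrenergic genes and 0 reference genes reach 100 kb. Zinc finger genes named Zfp gave 2 of 397.

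Of 39 long neuronal adhesion and synapse genes, 38 of at least 100 kb, 3 were in a domain: the adhesion molecule gene Ncam1, the neurite guidance gene Nav1 and the semaphorin receptor gene Plxna4. Another 27 were under 5% covered in every library. Of 17 common fragile site genes matched, 16 of at least 100 kb, 0 were in a domain and 11 were under 5% covered. The labelled cell type was checked on marker genes. Of noradrenergic markers 6 of 6 (among them Phox2a, Hand2, Gata3, Th and Dbh) and 4 of 7 neuronal markers were at least 25% covered in every library, while Nefl and Nefm were at 0. The glial, immune, endothelial, and liver and muscle lists had 0 of 5, 0 of 4, 0 of 3 and 0 of 4 so covered. The immune marker Cd68, a gene of 1.96 kb, was nevertheless 90.4%, 0%, 100% and 100% covered in the order 20% set 1, 20% set 2, 4% set 1 and 4% set 2.

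**Figure D1:**
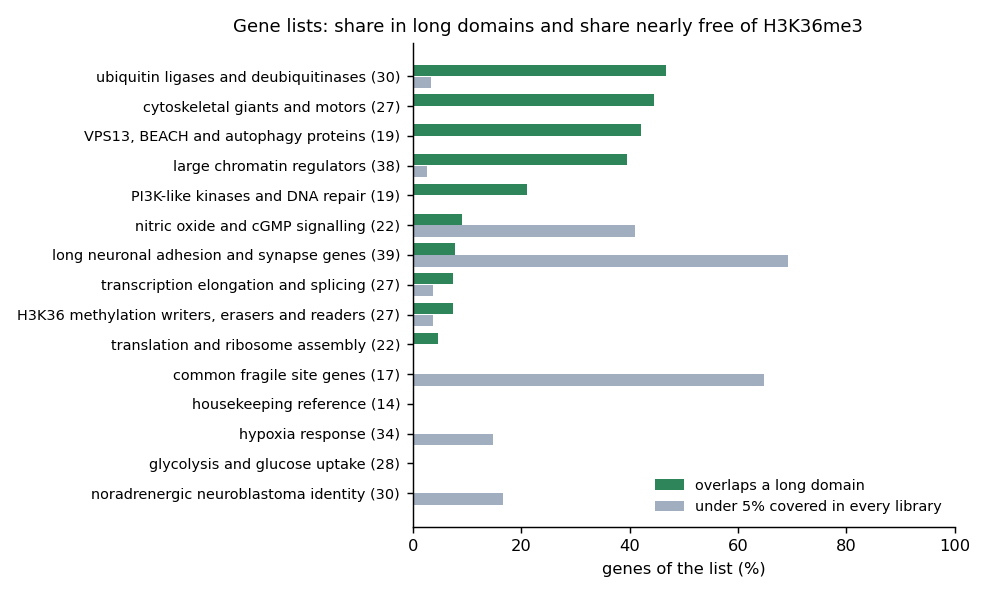
For each of 15 gene lists (number of matched genes in brackets), the green bar is the percentage of its genes that overlap a long H3K36me3 domain and the grey bar the percentage under 5% covered by H3K36me3 in every library. Ubiquitin, cytoskeletal, VPS13 and chromatin lists lead the green bars with 14 of 30, 12 of 27, 8 of 19 and 15 of 38 genes, and the neuronal adhesion list has 27 of 39 genes in grey.

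The list for nitric oxide and cGMP signalling had 2 of 22 members in a domain, Nos1 and Pde10a, a phosphodiesterase that breaks down cGMP and cAMP. The Nos1 domain (chr5:117842001-117959400, 117.4 kb) was unlike the others in its position. It began 24.8 kb upstream of the RefSeq record for the gene, which starts at 117866839, and ended 0.56 kb past its end. These are edges of the merged region. In the 20% library of set 1, islands covered 95.8% of the gene record but little of the stretch upstream of it. Of 175 domains with 1 gene of known strand, 2 began at least 5 kb upstream of the gene; the other was Col6a5 at 6.54 kb, where H3K4me3 was not at the edge in every library. At the upstream edge of the Nos1 domain an H3K4me3 peak was present in every library. It spanned 117840775-117843201 at 20% and 117840918-117843484 at 4% oxygen in set 1, and 117841356-117843419 in the 4% library of set 2. The 20% library of set 2 had 4 short peaks there, the longest 1.03 kb. As shown above, the listed Nos1 start itself had an H3K4me3 peak in 0 of 4 libraries. Nos1 is known for alternative first exons upstream of its coding region. Which transcript starts at the domain's edge was not measured.

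For the other domains the edges followed the gene's direction. Over these 175 domains the 5′ edge lay a median of 7.47 kb downstream of the gene start, within 10 kb of it in 90, and over 50 kb into the gene in 55. The 3′ edge lay a median of 2.16 kb past the gene end, beyond the end in 109. In 61 domains it stopped at least 5 kb short of it. H3K4me3, which was not used to choose the domains, was found within 2500 bp of 68.6%, 68.0%, 68.6% and 70.3% of the 5′ edges and of 17.1%, 16.6%, 15.4% and 18.3% of the 3′ edges. The difference was 52.0 ± 0.81 percentage points (SD, n = 4 libraries), with the same sign in 4 of 4 (exact sign-flip test over libraries, two-sided, p = 0.125, the smallest that 4 libraries allow).

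**Figure D2:**
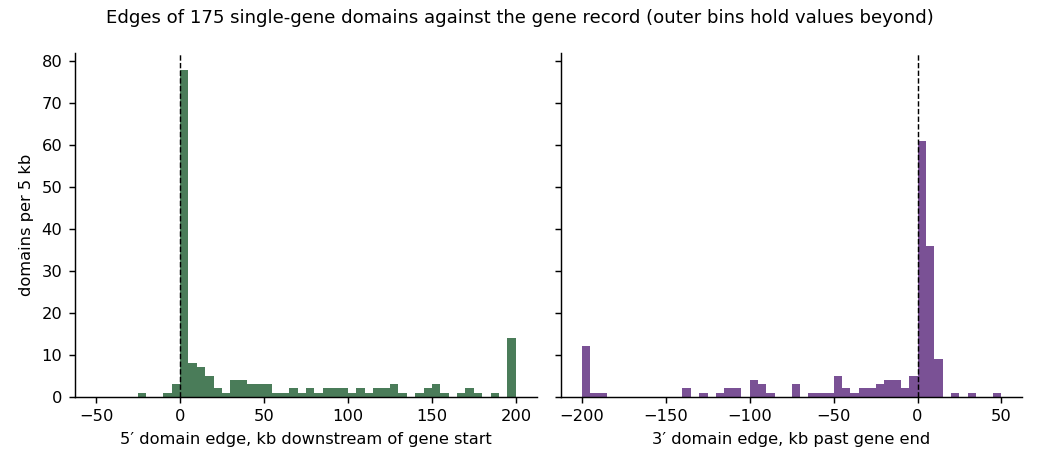
Histograms of the distance in kb from the gene start to the 5′ domain edge (left, positive is downstream) and from the gene end to the 3′ edge (right, positive is past the end) for 175 single-gene domains, in bins of 5 kb with the outer bins holding values beyond. Both peak next to the dashed line at 0, with 90 of the 5′ edges within 10 kb of the start and 109 of the 3′ edges past the gene end.

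Promoters of the leading genes carried active marks. Within 1000 bp of a listed start, H3K4me3 was present for 96.6%, 95.9%, 96.3% and 96.6% of leading genes. For the 1548 genes of at least 100 kb that have a promoter entry and no long domain it was 55.4%, 56.4%, 54.7% and 56.0%. H3K27ac gave 94.4% to 96.3% against 46.6% to 49.7%, and H3K27me3 1.12% to 2.99% against 18.1% to 21.9%. Leading genes differed by 40.8 ± 0.93 percentage points for H3K4me3, 47.8 ± 1.43 for H3K27ac and -18.5 ± 1.70 for H3K27me3 (SD, n = 4 libraries). Each difference had 1 sign in 4 of 4 libraries (exact sign-flip test, p = 0.125 each). Leading genes were chosen for long H3K36me3 cover, whereas the group without a long domain includes genes with almost none. The test therefore cannot tell a trait of long domains from one of genes with H3K36me3. The 291 long genes at least 50% covered without a long domain were not compared separately.

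Within the domains, H3K27me3 was listed nowhere: 0 of 344 domains had an H3K27me3 island in any of the 4 libraries. The other H3K36me3 regions were 0.072%, 0.087%, 0.082% and 0.051% covered, so the mark was scarce there too. Because the log2 ratio planned for this comparison cannot be formed with 0, the difference in covered percentage points is given, -0.073 ± 0.016 (SD, n = 4 libraries).

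H3K4me3 peaks covered 1.64%, 1.55%, 1.33% and 1.70% of the domains, against 4.45%, 4.33%, 3.38% and 4.62% of the other regions, a ratio of 0.36 to 0.39. The log2 ratio was -1.43 ± 0.06. H3K4me1, the enhancer mark, covered 10.1%, 8.41%, 7.77% and 7.86% of the domains against 9.20%, 7.27%, 5.83% and 5.74% elsewhere, a log2 ratio of 0.30 ± 0.15. H3K27ac covered 3.96%, 4.74%, 3.77% and 5.61% against 3.95%, 4.92%, 3.85% and 5.86%, a log2 ratio of -0.04 ± 0.03. All are SD over n = 4 libraries. Exact sign-flip tests, two-sided, gave p = 0.125, the smallest possible, for H3K4me3, H3K4me1 and H3K27me3 and p = 0.25 for H3K27ac (Benjamini-Hochberg adjusted over 4 marks, 0.167 for the first 3 and 0.25). Against other regions of at least 20 kb only, the log2 ratio was -1.07 for H3K4me3 and 0.39 for H3K4me1. There the H3K27ac ratio turned to the domains' side in every library (log2 0.17). The domains were chosen by length and H3K4me3 sits at promoters, so the test cannot separate its lower share from that choice.

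**Figure D3:**
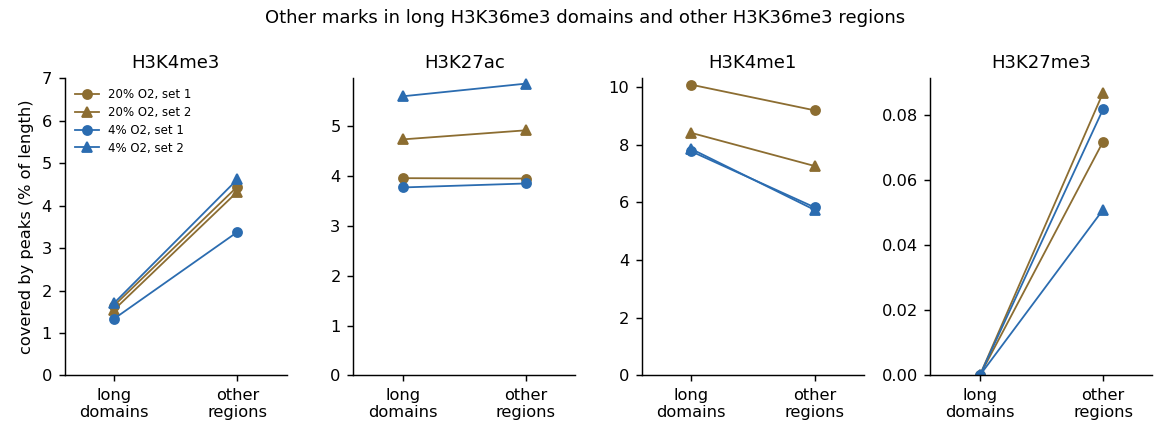
Percentage of length covered by peaks or islands of 4 other marks in the long H3K36me3 domains and in other H3K36me3 regions, with 1 line per library, brown for 20% and blue for 4% oxygen, circles for set 1 and triangles for set 2; each panel has its own axis from 0. H3K27me3 is 0 in the domains in all 4 libraries, and H3K4me3 is lower in the domains than elsewhere in all 4.

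With oxygen, H3K4me1 cover of the domains was lower at 4% in both sets, by 2.31 points in set 1 and 0.56 in set 2, from 9.25% ± 1.18 to 7.82% ± 0.06 (SD, n = 2 each; exact permutation test, two-sided, p = 0.333, the smallest possible). The other regions had lower cover too, 8.23% ± 1.37 against 5.79% ± 0.06. The ratio of domains to other regions was 1.10 and 1.16 at 20% oxygen and 1.33 and 1.37 at 4%, a gap that held in set 1 (0.24) and set 2 (0.21) and did not overlap between oxygen levels (exact permutation test, p = 0.333). For H3K4me3 and H3K27ac the sets went opposite ways: H3K4me3 cover differed by -0.31 points in set 1 and 0.16 in set 2, and H3K27ac by -0.19 and 0.87.

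Enhancer-type marks were unequal among the domains. A shared region is a merged region of the 4 peak lists that holds a peak of every library. The median domain held 1 shared H3K4me3, 2 shared H3K27ac and 3 shared H3K4me1 regions. No shared region was found in 82 domains for H3K4me3, 56 for H3K27ac and 46 for H3K4me1. Of 403 shared H3K4me3 regions in the domains, 246 were within 1 kb of a listed promoter and 157 were not. The most per domain was 4, in the longer Syt1 domain, Ano6, a phospholipid scramblase, Braf, the Ras-activated kinase, and Scrn1. Nav1 held 18 shared H3K27ac regions and Frmd4a 17, while Nf1, Zfp644, Mdn1 and Vps13d held 0. In Slit3, an axon guidance ligand, H3K27ac covered 57.5%, 53.7%, 43.8% and 50.1% of the domain, and in Kmt2c, an H3K4 methyltransferase of enhancers, 0.4%, 0.1%, 0.1% and 0.3%.

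The oxygen comparison asked whether H3K36me3 density in these domains differed between 4% and 20% oxygen. Without regard to the sets it found no domain: edgeR's quasi-likelihood test with Benjamini-Hochberg adjustment over all 10858 regions tested, sex chromosomes included, called 0 of them (0%), and DESeq2 called 2, of which 0 were long domains. At an unadjusted p under 0.05 there were 965 regions (8.89%) and 20 long domains, 15 higher and 5 lower at 4%. The median log2 ratio was 0.03 over the long domains and 0.01 over all regions. The 2 libraries of each oxygen level did not overlap in 85 domains that were higher at 4% and in 36 that were lower, 24.7% and 10.5% of the domains, against 20.2% and 19.8% of all regions (40% in either direction).

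With the set as a further term (replicate block), so that 4% and 20% are compared within each set, 41 of the 344 domains passed the adjusted threshold, 34 higher and 7 lower at 4% oxygen. Of all regions, 1163 passed (10.7%), 631 of them higher (5.81%) and 532 lower (4.9%). The 41 are 11.9% of the domains, near the background, while their split was 9.88% higher and 2.03% lower. This fit leaves 1 residual degree of freedom. Density was higher at 4% in both sets in 138 domains, lower in both in 83 and of opposite sign in 123. These signs were not counted over all regions, so whether the split is particular to the domains was not tested. Over the 344 domains the median log2 ratio was -0.006 in set 1 and 0.070 in set 2. In the fit without the set term, this median was 0.086 without the 20% library of set 1. It was -0.005 without the 20% library of set 2, so the tilt towards higher density depended on that library. The values below are log2 ratios of density, 4% over 20%, from the fit with the set term, and adjusted p-values are from edgeR's quasi-likelihood test over all regions.

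Plcxd3, a phospholipase C-like gene, had the largest ratio, with densities of 3.98 and 3.22 at 20% and 6.05 and 4.57 at 4% oxygen. Its log2 ratio was 0.56 ± 0.09 (SE, adjusted p = 8.7e-08), with 0.60 in set 1 and 0.51 in set 2. Both 4% libraries lay above both 20% libraries. In the fit without the set term the ratio was also 0.56, and 0.34 when the 4% library of set 1 was left out. The longer Syt1 domain had 2.57 and 2.23 against 3.43 and 3.02, a log2 ratio of 0.43 ± 0.08 (adjusted p = 5.2e-05), and cover in it was 89.3% and 83.6% against 100% and 96.1%. The shorter Syt1 domain had a ratio of 0.31 (adjusted p = 0.0040).

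Pam, the enzyme that amidates neuropeptides, had 1.79 and 2.88 at 20% and 2.44 and 3.79 at 4%. Its oxygen groups overlapped and the ratio of 0.42 ± 0.08 (adjusted p = 1.4e-05) appeared within each set, 0.45 and 0.40. Without the set term it was also 0.42, and there it moved to 0.07 without the 4% library of set 2, 0.11 without the 20% library of set 1, 0.70 without the 4% library of set 1 and 0.80 without the 20% library of set 2. Arhgef28, a guanine nucleotide exchange factor, had 2.69 and 2.87 against 3.56 and 3.71, a ratio of 0.39 ± 0.08 (adjusted p = 0.00025). Pde10a had 2.35 and 2.56 against 2.98 and 3.29, a ratio of 0.35 ± 0.08 (adjusted p = 0.00054). In both the oxygen groups did not overlap. The set values were 0.40 and 0.37 for Arhgef28 and 0.34 and 0.36 for Pde10a.

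Nos1 had densities of 2.18 and 3.00 at 20% and 3.10 and 3.16 at 4%. The 20% library of set 1 stood apart from the other 3, with cover of 76.0% against 94.9% to 99.8%. The ratio was 0.29 ± 0.08 (adjusted p = 0.0063), made of 0.51 in set 1 and 0.07 in set 2. DESeq2 with the set term did not call it (adjusted p = 0.118). In the fit without the set term the ratio was 0.27, and it was 0.05 without the 20% library of set 1 and 0.52 without that of set 2.

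The other domains called higher ran from 0.24 to 0.35. Among them, named after their values were seen, were Efna5, an ephrin ligand (0.32), Astn1, a neuron-glia adhesion protein (0.30), Myt1l, a neuronal transcription factor (0.28 in 1 of its 2 domains), Nav1 (0.26), Ncam1 (0.26 in 1 of its 2 domains), both Nyap2 domains (0.29 and 0.25) and the second Dgki domain (0.33). The nuclear receptor gene Pparg (0.29) and the noncoding Lncpint (0.33) were also called. DESeq2 with the set term called 23 of the 34, but not the Ncam1 domain (adjusted p = 0.122) or the Nyap2 domains (0.078 and 0.178). Without the set term and without 1 of the 4% libraries, the Nyap2 domains moved to 0.01 and -0.03 (set 2 left out), the Dgki domain to 0.18 and Lncpint to 0.21 (set 1 left out). Of the 4 domains of the neuronal adhesion list 2 were called higher, the other Ncam1 domain (0.01) and Plxna4 (-0.13) not being called, and of the nitric oxide list 2 of 2, against 5.81% of all regions and 9.88% of the long domains.

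Each of the 7 domains called lower kept its oxygen groups apart, as did 28 of the 34 called higher, against 40% of all regions. The call favours such separation, so this is partly built in. Drosha, the nuclease that starts microRNA processing, had densities of 6.16 and 6.12 at 20% and 4.76 and 4.67 at 4% oxygen. Its log2 ratio was -0.38 ± 0.09 (adjusted p = 0.00056), with -0.37 in set 1 and -0.39 in set 2. Mdn1, a ribosome assembly ATPase, had 3.54 and 3.01 against 2.43 and 2.64, a ratio of -0.37 ± 0.08. Atm, the DNA double-strand break kinase, had 3.15 and 2.48 against 2.26 and 2.11, a ratio of -0.36 ± 0.08. In the fit without the set term the Atm ratio was -0.37, and -0.19 when the 20% library of set 1 was left out. Uggt1, a glycoprotein folding sensor, had 4.92 and 5.24 against 3.83 and 4.35 (-0.32), and Polr3b, a subunit of RNA polymerase III, 3.37 and 3.32 against 2.65 and 2.93 (-0.27). Cabin1 and Cplane1 were each at -0.26. DESeq2 with the set term called 5 of the 7, but not Mdn1 (adjusted p = 0.304) or Polr3b (0.0713). Cover was at least 90% in every library in 6 of the 7, Polr3b being the exception.

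**Figure D4:**
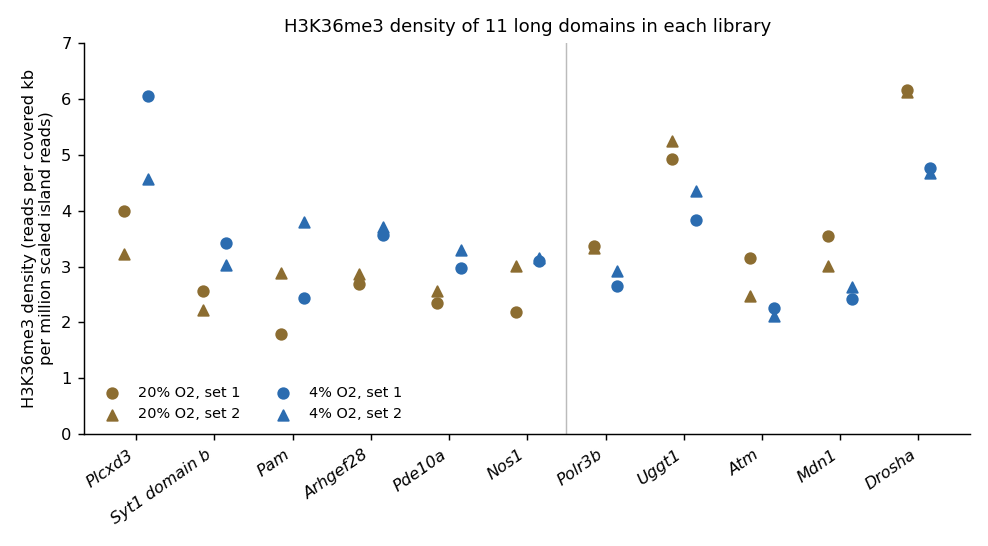
H3K36me3 density (reads per covered kb per 1000000 scaled island reads) of 11 long domains in each of the 4 libraries, brown for 20% and blue for 4% oxygen, circles for set 1 and triangles for set 2. Left of the grey line are 5 domains called higher with the set term and Nos1, right of it 5 called lower; Drosha goes from 6.16 and 6.12 to 4.76 and 4.67.

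Cover differed between libraries in some of these domains. Of the 34 domains called higher, 15 were at least 90% covered in every library. All 15 were also called when only such regions were tested by reads without the covered length. Plcxd3, the longer Syt1 domain, Pam and Nos1 were covered less in some library, so their ratios were not in that test. That test, with the set term, called 53 of 236 long domains (39 higher and 14 lower) and 742 of 3677 regions (20.2%; 10.6% higher and 9.63% lower). When the covered length was left out over all regions, 0 long domains and 0 regions passed. At an unadjusted p under 0.05 there were then 65 of 344 long domains and 1852 of all 10858 regions. Leaving out any library, in the fit without the set term, kept the direction of 7 of the 7 called lower. It kept that of 33 of the 34 called higher, the exception being the Nyap2 domain given above. Every called domain had the same sign in both sets, so this is partly built in by the call.

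**Figure D5:**
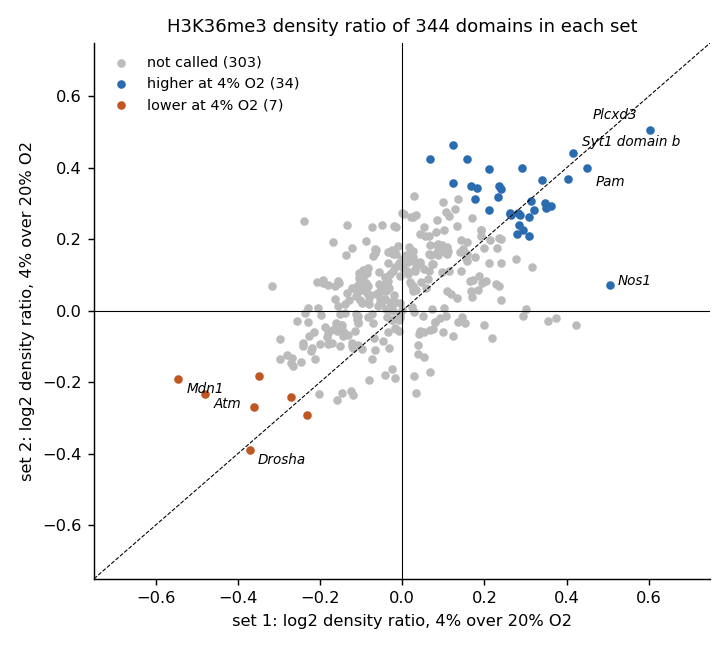
Log2 ratio of H3K36me3 density, 4% over 20% oxygen, for 344 long domains in set 1 (horizontal) and set 2 (vertical), with the line of equality dashed. The 34 domains called higher with the set term are blue, the 7 called lower orange and the 303 others grey; Nos1 lies at 0.51 in set 1 and 0.07 in set 2.

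The called domains differed in their other marks, which were measured in other libraries. H3K27ac covered 8.46%, 9.69%, 8.30% and 11.6% of the 34 called higher, 1.37%, 2.08%, 1.21% and 2.11% of the 7 called lower, and 3.50%, 4.23%, 3.31% and 4.98% of the 303 others. H3K4me1 covered 14.4% to 18.3%, 1.37% to 3.57% and 6.98% to 9.28%. In each library, cover by either mark was highest in the domains called higher and lowest in those called lower. H3K4me3 covered 2.33% to 3.29% of the domains called lower, 1.66% to 1.95% of those called higher and 1.28% to 1.64% of the others. Mean density over the 4 libraries had medians of 3.19 in the domains called higher, 3.54 in those called lower and 3.65 in the others.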

How the data were processed

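Members, gene lists and tests were chosen with earlier results of these data known. Per the submitters' processing notes, BWA aligned the reads to mm10, Picard followed, and SICER (H3K36me3, H3K27me3) or MACS2 (other marks) called enrichment; versions and settings are not given in the sources used here. The deposited SICER lists give whole-number read counts per island in an unlabelled column. The deposited MACS2 score, read as a −log10 value from its range, only ranked peaks within a list. Each library was called alone, per the file headers. Intervals of the second MACS2 libraries stood in files listed under the first, and matched the second libraries' summits in 100% of entries. SICER ends were read as inclusive. In the titles only the inputs carry that number, and the set 2 library of each mark is told by the ending rep. The set difference (replicate 1 minus 2) correlated between oxygen levels across 10858 regions (Pearson r 0.50, description). Counts per region were fitted with edgeR 4.0.16 (R 4.3.3), at least 10 reads in every library, TMM scaling and covered length as offset; DESeq2 1.42.0 was an alternative. Counts were simulated for 4% against 20% oxygen over 10858 regions. On them the fit recovered 79% of changes of log2 0.5 (75% with the set term) and 100% of log2 1. The simulation gave every region the same dispersion and every library the same covered length. For the fit without the set term it held no difference between sets, unlike the data. These shares therefore do not say how many such changes the fit would find in the data. Genes are RefSeq, GRCm38.p6. Of 394 list entries 393 matched. Named domains were Nos1, the 10 longest, the 5 densest and thinnest, the 5 highest and lowest by oxygen, those with most shared H3K4me3 regions, those at the threshold, and up to 8 per list, some of which are not reported here; other domains called or rich in H3K27ac were named after their values were seen.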

Additional observations from a re-analysis of the deposited data

How the results depend on the processing

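The number of domains depended on the length rule, with 1891 at 50 kb, 16 at 200 kb and 87 when only stretches covered in every library counted; the other alternatives gave 339 to 464, and 308 to 314 without any 1 library. The density comparison called 0 long domains without the set term in every scaling tried and with DESeq2. The fit with a replicate block called 41 of 344, also 41 with RLE scaling, 64 with library totals only and 28 with DESeq2. Among regions at least 0.9 covered it called 53 of 236. Of all 10858 regions the block called 1163, 1063 with RLE scaling and 1348 with library totals only. With DESeq2 it called 178 of the 4964 regions given an adjusted p, and at 0.9 cover 742 of 3677. When 1 library was left out of the fit without the set term, the log2 ratio of Plcxd3 ranged from 0.34 to 0.75 and that of Pam from 0.07 to 0.80. The 11 domains in the plot of densities by library kept their direction under every alternative they were tested in, and none turned. Apart from Nos1 they were chosen by these same ratios, so this is partly built in. The H3K36me3 cover difference (-0.76 points at 4%) ranged from -1.98 to 0.47 without single libraries, turning without the 4% library of set 1. The H3K4me3 cover difference by oxygen likewise ranged from -0.26 to 0.11, turning without that set's 4% library. The H3K27ac difference ranged from -0.58 to 1.25, turning when either the set 1 library at 20% or the set 2 library at 4% was left out. The log2 ratio of H3K27ac against other regions turned from -0.04 to 0.17 against regions of at least 20 kb. The cause was not tested in any of these. Depth of the MACS2 libraries is unknown, and 2 libraries per group cannot give an exact p below 0.333. The H3K4me3 edge windows of 1000 and 5000 bp, the block with RLE scaling, library totals or DESeq2, and the reading of island ends as written were chosen after seeing the data.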
